A study of Drosophila melanogaster with 6 samples.

Results

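The genes described here make the small-molecule neurotransmitters of the fly, load them into synaptic vesicles or take one of them back up. They are ChAT, VGlut, Gad1, VGAT, ple, Ddc, Tdc2, Tbh, Vmat and DAT, 10 of the 17753 genes in the deposited table, chosen by name as markers of cholinergic, glutamatergic, GABAergic and aminergic neurons and matched by FlyBase identifier. Counts were present for 9 of the 10. Tdc2, the tyrosine decarboxylase of octopamine and tyramine neurons, had no count in any library and was treated as not measured.

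The RNA-seq libraries came from male Drosophila melanogaster in which Repo-GS, an inducible driver of all glia, controls an RNAi construct directed at the UDP-glycosyltransferase gene Ugt35b; GeneSwitch drivers of this kind become active when flies receive RU486. The 3 RU486 libraries held flies with the driver switched on, and the 3 EtOH libraries held the same genotype with ethanol in place of the drug. All were taken at day 10, with 10 males and 500 ng of total RNA per library. Both groups carry driver and construct, and no RU486-treated flies without the construct were analysed here, so the effect of the drug and that of the knockdown cannot be told apart. The driver acts in glia, whereas the genes described here are known mainly from neurons. The study asked which transcripts change in the head under a glial knockdown that it links to a shorter lifespan.

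The fly brain relies on acetylcholine as its main fast excitatory transmitter, on GABA for inhibition, and on glutamate both at the neuromuscular junction and in the brain. Acetylcholine is made by ChAT and GABA by Gad1. Each of these transmitters is pumped into vesicles by its own transporter, driven by the proton gradient of the vesicular ATPase. Dopamine, serotonin, octopamine and tyramine are made by small groups of neurons and share 1 vesicular transporter, Vmat. Tyrosine hydroxylase (ple) and dopa decarboxylase (Ddc) also work in the epidermis, where their products tan the cuticle, and Vmat is also known from a type of glia in the optic lobe. In bulk RNA, fewer cells of a type and less RNA per cell cannot be told apart.

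Library totals ran from 10156909 to 10633167 counts in RU486 and from 11689966 to 12636787 in EtOH. Labels name the tissue head and the protocol names brains. The gene ninaE, the main rhodopsin of photoreceptors, took 3.62% to 4.48% of the counts of each library, and Mhc, a muscle myosin gene, was at 1500 to 1935 counts per 1000000. RNA of eye and muscle was thus present, and levels are not read as those of brain alone. The target, listed as Ugt35B1, was at 106, 83.5 and 104 CPM (counts per 1000000 counts, scaled by TMM factors) in RU486 replicates 1 to 3 and at 145, 136 and 147 CPM in EtOH replicates 1 to 3 (log2 fold change -0.54, SE 0.09, edgeR quasi-likelihood test, adjusted p = 0.00865; 0.0566 without EtOH replicate 3). EtOH replicate 2 stood apart by transcript length. Against the other EtOH libraries its log2 CPM was higher by a median of 0.14 in the longest tercile of tested genes, and its median difference was -0.19 in the shortest tercile. Of the 9 measured genes, 6 lie in the longest tercile, 3 in the middle tercile and 0 in the shortest, so EtOH replicate 2 bears on them, and results without it are given where they differ. Digestive transcripts were present in RU486 replicate 2 and, at a lower level, in RU486 replicate 3. Amy-p, an amylase gene, was at 9.27, 795 and 257 CPM in RU486 and 4.50, 5.22 and 3.10 CPM in EtOH, and the protease gene Jon65Aiv was at 0.483, 1901 and 73.5 CPM in RU486 and 2.49, 5.65 and 0.620 CPM in EtOH. Over 8 digestive markers the sums were 496, 6877 and 1147 CPM in RU486 and 715, 667 and 693 CPM in EtOH, where LManII made up most of the lower sums. Of 6 tested, Amy-p and Amy-d rose and LManII fell, where 4.36% of all tested genes rose and 3.28% fell.

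No gene of transmitter synthesis or loading passed the test. Of 9 measured genes, 0 rose, 0 fell and 9 did not pass at an adjusted p under 0.05 over all 8945 genes tested, where edgeR called 7.64% of genes, 4.36% higher and 3.28% lower. At an unadjusted p under 0.05 there were 4 (Gad1, DAT, VGlut and Ddc), with 22.3% of all tested genes past that mark. The log2 fold changes of the 9 genes ran from -0.34 to -0.03, with a median of -0.18 beside 0.00 over all tested genes, and 9 of 9 were below 0, as were 49.4% of all tested genes. For 6 of the 9 every RU486 library was below every EtOH library, against 13.5% of all tested genes. Those values come from the same 6 libraries and are not independent of each other. Other tools called 2 genes lower (the DESeq2 Wald test, Gad1 and VGlut, 4.27% of genes lower) or 1 (limma-voom, Gad1, 3.16%).

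**Figure D1:**
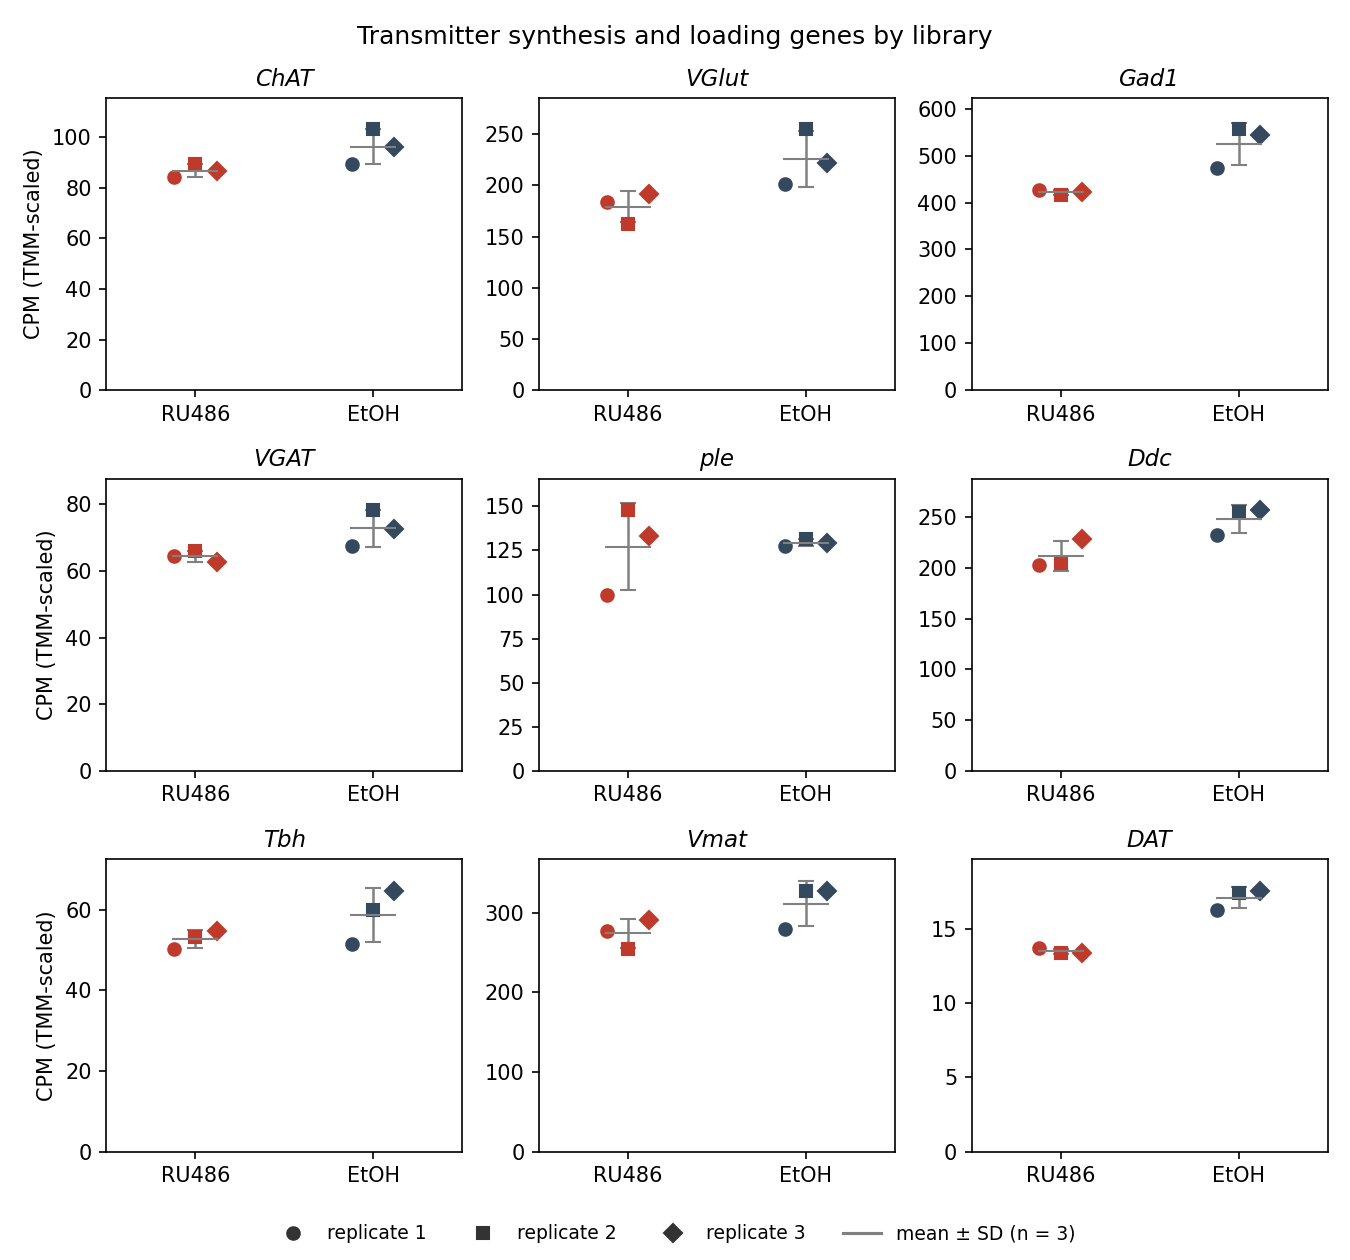
Level of each measured gene in every library, in TMM-scaled CPM on axes that start at 0, with RU486 on the left and EtOH on the right of each panel; symbols mark replicates and the grey marks the mean ± SD of 3 libraries. RU486 libraries lie below all EtOH libraries for ChAT, VGlut, Gad1, VGAT, Ddc and DAT, and overlap them for ple, Tbh and Vmat.

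Levels between genes were compared per kb of exon (CPM per kb, from the union of annotated exons). Gad1 was the highest at 115 ± 1.39 CPM per kb in RU486 and 142 ± 12.1 in EtOH (SD, n = 3 each), followed by Ddc at 75.8 ± 5.20 in RU486 and 88.7 ± 4.97 in EtOH. Vmat (33.7 ± 2.28), ple (33.4 ± 6.49) and VGlut (31.3 ± 2.68) came next in RU486, and their libraries overlapped, so their order is not resolved on this scale. In EtOH, VGlut (39.5 ± 4.74), Vmat (38.3 ± 3.42) and ple (34.0 ± 0.521) overlapped too. VGAT (23.8 ± 0.633 CPM per kb in RU486, 26.9 ± 2.03 in EtOH) stood just above ChAT (21.6 ± 0.634 in RU486, 24.0 ± 1.71 in EtOH); their libraries were apart in RU486 and overlapped in EtOH. Tbh at 13.6 ± 0.592 and DAT at 4.44 ± 0.0627 CPM per kb were lowest in RU486, and held the same places in EtOH at 15.2 ± 1.74 and 5.63 ± 0.231. Exonic bases within the span of another gene may or may not have been counted. Divided by the exonic bases that no other gene spans, the mean level of Vmat was 46.2 CPM per kb in RU486 and 52.4 in EtOH, above VGlut (31.6 in RU486, 39.8 in EtOH) and ple (33.4 in RU486, 34.0 in EtOH). On that scale ChAT, at 25.5 in RU486 and 28.3 in EtOH, was above VGAT, at 23.8 in RU486 and 26.9 in EtOH.

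ChAT, choline acetyltransferase, makes acetylcholine (FBgn0000303, chromosome 3R, 18705501 to 18732344, plus strand, build BDGP6.54). VAChT, the vesicular acetylcholine transporter, lies within the ChAT gene on the same strand, shares 606 exonic bases with it, and had no count in any library, as did 4 other genes inside ChAT. Acetylcholine loading was therefore not measured, and whether reads of VAChT entered the count of ChAT is not known from the files. ChAT was at 84.2, 89.3 and 86.8 CPM in RU486 and 89.5, 103 and 96.1 CPM in EtOH. All RU486 values were lower, but RU486 replicate 2 was only just below EtOH replicate 1. This gave a log2 fold change of -0.15 (SE 0.07, 95% interval -0.31 to 0.01, edgeR adjusted p = 0.256), which was -0.10 without EtOH replicate 2 (adjusted p = 0.327).

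For partners of ChAT, of 16 listed genes for acetylcholine transport, breakdown and reception, 13 were tested and edgeR called 0 (2 at an unadjusted p under 0.05, and 0 by the DESeq2 Wald test and limma-voom), with a median log2 fold change of -0.06. Over all 8945 tested genes, calls numbered 683 (edgeR), 872 (DESeq2) and 668 (limma-voom), and 22.3% passed the unadjusted mark. Ace, the acetylcholinesterase that ends the signal, was at 616, 659 and 651 CPM in RU486 and 505, 613 and 540 CPM in EtOH (log2 fold change 0.22, SE 0.09, adjusted p = 0.192). ChT, the choline transporter, was at 39.9, 43.9 and 56.0 CPM in RU486 and 48.4, 55.0 and 66.2 CPM in EtOH (-0.28, SE 0.15, adjusted p = 0.319), a value of -0.15 without EtOH replicate 3 and -0.43 without RU486 replicate 3. The receptor subunit gene nAChRbeta2 was at 50.6, 57.5 and 66.4 CPM in RU486 and 63.6, 72.9 and 78.8 CPM in EtOH (-0.30, SE 0.12, adjusted p = 0.165). Groups overlapped for ChT and nAChRbeta2 and did not for Ace. Without EtOH replicate 2, 3 of the list were called higher, Ace among them (0.30, adjusted p = 0.0195), where 9.39% of all genes were called higher, and Ace was at 0.14 without EtOH replicate 1.

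VGlut is the vesicular glutamate transporter and the usual marker of glutamatergic neurons (FBgn0031424, chromosome 2L, 2400295 to 2410662, plus strand). It was at 184, 162 and 192 CPM in RU486 and 201, 255 and 222 CPM in EtOH. RU486 libraries were all below EtOH libraries, with EtOH replicate 2 the highest. The log2 fold change was -0.33 (SE 0.11, 95% interval -0.57 to -0.09), a level lower by 20.7%, and edgeR did not call it (adjusted p = 0.0954). Leaving out EtOH replicate 2 gave -0.24 (adjusted p = 0.101), and leaving out replicate 2 of both groups gave -0.17 (adjusted p = 0.130). The end of VGlut shares 39 exonic bases with CG18641 on the other strand.

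Of 14 genes that supply, clear or sense glutamate, 12 were tested and edgeR called 0 (5 at an unadjusted p under 0.05, 2 by the DESeq2 Wald test, 1 by limma-voom), with a median of -0.04. Among all 8945 tested genes, 22.3% passed the unadjusted mark, and edgeR called 683, DESeq2 872 and limma-voom 668. Eaat1, the glial glutamate transporter, was at 469, 463 and 465 CPM in RU486 and 552, 584 and 541 CPM in EtOH (log2 fold change -0.26, SE 0.07, adjusted p = 0.0604). Got1, an aspartate aminotransferase that interconverts glutamate and oxoglutarate, was at 356, 358 and 351 CPM in RU486 and 431, 400 and 453 CPM in EtOH (-0.27, SE 0.08, adjusted p = 0.0773). Grik, of the kainate-type glutamate receptor family, was at 81.1, 63.1 and 50.6 CPM in RU486 and 29.6, 24.2 and 50.4 CPM in EtOH (0.90, SE 0.26, adjusted p = 0.0741). For Grik, RU486 replicate 3 and EtOH replicate 3 were nearly equal. Without EtOH replicate 2, 5 genes of the list were called, 1 higher and 4 lower, where 15.9% of all genes were called, 9.39% higher and 6.47% lower. Eaat1 was called in 7 of 16 alternatives and Got1 in 4. Calls in the list numbered 3 with the length correction, all lower, where 5.02% of all genes were called lower. Without EtOH replicate 3 there was 1, which was higher, as were 214 of all 9101 genes.

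Gad1, the glutamate decarboxylase that makes GABA, was the gene of the set closest to passing (FBgn0004516, chromosome 3L, 4074077 to 4088744, minus strand). Its counts were 4415, 4332 and 4292 in RU486 and 5896, 6500 and 7020 in EtOH, which gave 426, 416 and 423 CPM in RU486 and 474, 556 and 544 CPM in EtOH. RU486 libraries were tightly grouped, with a coefficient of variation of 1.21% against 8.47% in EtOH, and all lay below the lowest EtOH library, replicate 1. The log2 fold change was -0.31 (SE 0.08, 95% interval -0.51 to -0.12), a level lower by 19.6%, which edgeR's quasi-likelihood test with Benjamini-Hochberg adjustment did not call (adjusted p = 0.0584). The 95% intervals are not adjusted for the number of genes, so 1 that leaves out 0 can go with an adjusted p above 0.05. Gad1 passed when EtOH replicate 1 was left out (-0.40 on the log2 scale, adjusted p = 0.0317, 1.81% of all genes called lower) and when EtOH replicate 2 was (-0.27, adjusted p = 0.0449, 6.47% called lower), and did not when any other library was left out (adjusted p = 0.157 to 0.206). It overlaps CG14989 on the other strand, with no exonic base in common.

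VGAT, the vesicular GABA transporter, was at 64.4, 66.0 and 62.6 CPM in RU486 and 67.4, 78.3 and 72.6 CPM in EtOH (FBgn0033911, chromosome 2R, 14198478 to 14201249, minus strand). Again the groups did not overlap, with EtOH replicate 1 close to RU486. In log2 terms the change was -0.18 (SE 0.08, 95% interval -0.35 to 0.00, edgeR adjusted p = 0.225), and it was -0.12 without EtOH replicate 2 (adjusted p = 0.285). VGAT counts per Gad1 count, a ratio that does not depend on library size, were 0.151, 0.159 and 0.148 in RU486 and 0.142, 0.141 and 0.133 in EtOH. The loading gene was thus slightly higher relative to the synthesis gene in every RU486 library. The closest values were 0.148 (RU486 replicate 3) and 0.142 (EtOH replicate 1). Gad1 had the smallest p of the set, so this ratio is a description and carries no test.

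In the rest of the GABA list, Gat, b and Ssadh fell. Of 10 listed genes outside the set, 10 were tested, 0 rose, 3 fell and 7 did not pass, with a median log2 fold change of -0.14. Over all tested genes 4.36% rose and 3.28% fell. Gat, which clears GABA into glia that resemble astrocytes, fell to 55.0, 45.8 and 45.5 CPM in RU486, against 169, 197 and 188 CPM in EtOH (log2 fold change -1.92, SE 0.10, edgeR adjusted p = 1.81e-05). The gene b (black), a decarboxylase related to Gad1 that makes beta-alanine from aspartate, fell to 55.2, 45.6 and 51.2 CPM in RU486, against 121, 119 and 114 CPM in EtOH (-1.22, SE 0.08, adjusted p = 8.52e-05). Leaving out any 1 of the 6 libraries did not end the call of Gat or b. Gat and Eaat1 are also on the list of glial markers, of which 8 of 10 were tested, 1 rose, 3 fell and 4 did not pass. Mdr65 rose (log2 fold change 0.95), and wrapper (-2.10), Gat (-1.92) and zyd (-0.89) fell. The markers moody and alrm were listed at 0. The list summed to 3445 to 3768 CPM in RU486 and 3781 to 3862 CPM in EtOH. Most of each sum was Gs2, with means of 2054 CPM in RU486 and 2061 CPM in EtOH. The part of glial cell number in the values of Gat was not tested.

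Ssadh, succinic semialdehyde dehydrogenase of GABA breakdown, was at 157, 163 and 157 CPM in RU486 and 207, 182 and 193 CPM in EtOH (log2 fold change -0.29, SE 0.07, adjusted p = 0.0482). Its call was lost without RU486 replicates 1, 2 or 3 (adjusted p = 0.120, 0.117 and 0.145) and without EtOH replicates 1 or 3 (0.0866 and 0.124). Gabat, the GABA transaminase that acts before Ssadh, was at 409, 401 and 395 CPM in RU486 and 424, 421 and 420 CPM in EtOH (-0.07, SE 0.07, adjusted p = 0.634).

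Since a ratio of counts does not depend on library size, Gat and b were also set against Gad1. Gat counts per Gad1 count were 0.129, 0.110 and 0.107 in RU486 and 0.356, 0.355 and 0.345 in EtOH, and b counts per Gad1 count were 0.129, 0.109 and 0.121 in RU486 and 0.256, 0.213 and 0.209 in EtOH. Neither ratio overlapped between groups. On the log2 scale they differed by -1.61 and -0.91, RU486 minus EtOH. Gat and b were chosen for their small p, so these ratios are a description and carry no test.

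**Figure D2:**
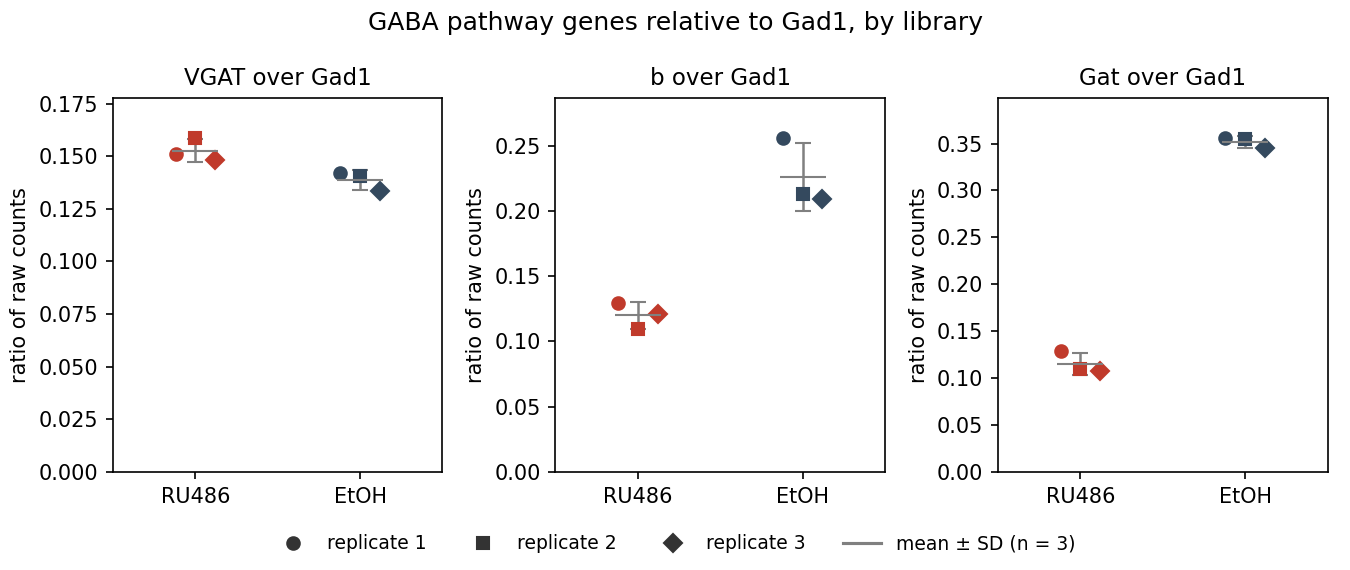
Counts of VGAT, b and Gat divided by the count of Gad1 in the same library (ratio of raw counts, axes from 0), with RU486 left and EtOH right; symbols mark replicates and the grey marks the mean ± SD of 3 libraries. Gat over Gad1 is 0.107 to 0.129 in RU486 and 0.345 to 0.356 in EtOH, whereas VGAT over Gad1 is 0.148 to 0.159 in RU486 and 0.133 to 0.142 in EtOH.

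Among amine genes, ple, tyrosine hydroxylase, catalyses the first step of dopamine synthesis (FBgn0005626, chromosome 3L, 6713356 to 6719525, minus strand). It was at 99.8, 148 and 133 CPM in RU486 and 127, 131 and 130 CPM in EtOH. RU486 libraries were spread on both sides of EtOH, with a coefficient of variation of 19.4% against 1.53% in EtOH, the widest RU486 spread of the 9 genes. Its log2 fold change was -0.03 (SE 0.13, 95% interval -0.31 to 0.26, edgeR adjusted p = 0.936), and it was 0.11 without RU486 replicate 1 and -0.15 without RU486 replicate 2. RU486 replicates 1, 3 and 2 had the same order from low to high in ple as in the summed digestive markers (496, 1147 and 6877 CPM); the part of the digestive transcripts in this spread was not tested.

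Ddc, dopa decarboxylase, completes dopamine and also serotonin (FBgn0000422, chromosome 2L, 19116483 to 19120306, minus strand). It was at 203, 204 and 229 CPM in RU486 and 232, 255 and 257 CPM in EtOH, with RU486 replicate 3 just below EtOH replicate 1. Its log2 fold change was -0.23 (SE 0.08, 95% interval -0.42 to -0.04, edgeR adjusted p = 0.148). Its end shares 88 exonic bases with CG10561 on the other strand, and whether strand was used in counting is not known from the files. The ratio of ple to Ddc counts was 0.493, 0.724 and 0.583 in RU486 and 0.548, 0.514 and 0.504 in EtOH, which overlapped.

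Cells of the epidermis and hemocytes also bear on ple and Ddc. Of 11 tested markers of epidermis and cuticle tanning, 4 rose (Cpr49Ac, Cpr49Ab, serp and verm), 1 fell (b) and 6 did not pass; y was listed at 0, and the list summed to 919 to 1036 CPM in RU486 and 1004 to 1146 CPM in EtOH. Of 5 tested hemocyte and crystal cell markers, 1 rose (Pxn), 1 fell (PPO2) and 3 did not pass, with PPO1 listed at 0 and sums of 781 to 868 CPM in RU486 and 588 to 628 CPM in EtOH. For both lists, the shares over all tested genes were 4.36% higher and 3.28% lower. The part of these cells in the values of ple and Ddc was not tested.

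Tbh, tyramine beta-hydroxylase, converts tyramine to octopamine (FBgn0010329, chromosome X, 7995697 to 8027394, plus strand). It was at 50.2, 53.2 and 54.7 CPM in RU486 and 51.4, 59.9 and 64.7 CPM in EtOH, and the groups overlapped through EtOH replicate 1 (log2 fold change -0.16, SE 0.10, 95% interval -0.37 to 0.06, edgeR adjusted p = 0.401). The value was -0.26 without EtOH replicate 1 and -0.08 without EtOH replicate 3. Tdc2, the enzyme of the step before, lies inside Rpp25 on the other strand (FBgn0050446, chromosome 2R, 6684745 to 6689974, minus strand). None of its exonic bases lies outside the span of Rpp25, although none is shared with an exon of Rpp25, and how the counting treated such bases is not known from the files. Its count of 0 in all libraries was therefore not read as absence of expression. Tdc1, its relative outside the nervous system, was also listed at 0.

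Vmat, the vesicular transporter of dopamine, serotonin, octopamine and tyramine, was at 277, 254 and 291 CPM in RU486 and 279, 327 and 328 CPM in EtOH (FBgn0260964, chromosome 2R, 13513132 to 13534251, minus strand). RU486 replicate 3 was above EtOH replicate 1, so the groups overlapped. In log2 terms the change was -0.18 (SE 0.10, 95% interval -0.40 to 0.03, edgeR adjusted p = 0.306). The change was -0.15 without EtOH replicate 2 (adjusted p = 0.328), -0.09 without replicate 2 of both groups and -0.32 with the length correction. Of its exonic bases 73.0% lie outside other genes, and 3 genes on the other strand inside Vmat had no counts.

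The transporter DAT, which returns dopamine from the cleft to the neuron, had the lowest level of the set and low spread, with coefficients of variation of 1.41% in RU486 and 4.10% in EtOH (FBgn0034136, chromosome 2R, 16558567 to 16565238, minus strand). Its counts were 142, 139 and 136 in RU486 and 203, 204 and 227 in EtOH, or 13.7, 13.4 and 13.4 CPM in RU486 and 16.3, 17.5 and 17.6 CPM in EtOH. Sampling alone would on average spread counts of this size more widely, so the low spread is not read as a trait of DAT. No RU486 library reached the EtOH range. The log2 fold change was -0.34 (SE 0.10, 95% interval -0.57 to -0.12), a level lower by 21.2%, which edgeR did not call (adjusted p = 0.0756). The DESeq2 Wald test did not call it either (adjusted p = 0.194). DAT counts per Vmat count were 0.0494, 0.0526 and 0.0461 in RU486 and 0.0584, 0.0533 and 0.0537 in EtOH, with RU486 replicate 2 only just below EtOH replicate 2.

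Of 16 listed enzymes, cofactor genes and transporters around the amines, 15 were tested and edgeR called 0 (4 at an unadjusted p under 0.05, 2 by the DESeq2 Wald test, 1 by limma-voom), with a median of -0.13. Here too, 22.3% of all 8945 tested genes passed the unadjusted mark, and edgeR called 683, DESeq2 872 and limma-voom 668. Pu, GTP cyclohydrolase, makes the cofactor that ple needs, and was at 312, 269 and 306 CPM in RU486 and 246, 211 and 263 CPM in EtOH (log2 fold change 0.30, SE 0.10, adjusted p = 0.122), with the groups apart. The genes t (tan) and e (ebony), which split and join amines and beta-alanine, were lower in every RU486 library: t at 284, 262 and 276 CPM in RU486 and 365, 326 and 329 CPM in EtOH (-0.31, SE 0.08, adjusted p = 0.0568), and e at 207, 214 and 178 CPM in RU486 and 238, 229 and 237 CPM in EtOH (-0.23, SE 0.09, adjusted p = 0.155). Both serve histamine recycling in the eye, and photoreceptor markers, with 7 tested and 0 called by edgeR (4 at an unadjusted p under 0.05), had log2 fold changes of -0.32 to -0.02.

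For other amines, 3 genes were read after their values had been seen. Trh, the neuronal tryptophan hydroxylase of serotonin synthesis, was at 16.9, 19.2 and 20.7 CPM in RU486 and 20.4, 23.6 and 23.6 CPM in EtOH (log2 fold change -0.25, SE 0.11, edgeR adjusted p = 0.234). SerT, the serotonin transporter, had a log2 fold change of 0.00 (SE 0.10, 95% interval -0.23 to 0.24), and Hdc, histidine decarboxylase of photoreceptors, one of -0.00 (SE 0.06, 95% interval -0.14 to 0.13). Without EtOH replicate 2, 2 genes of the list were called lower, t among them (adjusted p = 0.0210), where 6.47% of all genes were called lower. Across the 16 alternatives t was called in 9 and Pu in 3. Without replicate 2 of both groups the list held 5 calls, 1 higher and 4 lower, where 1394 of 8990 genes were called, 827 higher and 567 lower.

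Amine receptors gave no call. Of 17 tested, edgeR called 0 (0 at an unadjusted p under 0.05, and 0 by the DESeq2 Wald test and limma-voom), with a median of 0.02. The unadjusted mark was passed by 22.3% of all 8945 tested genes, and edgeR called 683, DESeq2 872 and limma-voom 668. DopEcR, a dopamine and ecdysteroid receptor, was at 439, 426 and 435 CPM in RU486 and 445, 523 and 471 CPM in EtOH (log2 fold change -0.15, SE 0.08, adjusted p = 0.357). The tyramine receptor gene TyrRII (0.34, SE 0.18, adjusted p = 0.320) and the serotonin receptor gene 5-HT7 (0.19, SE 0.10, adjusted p = 0.331) overlapped between groups. Single libraries moved these values: DopEcR was at -0.08 and TyrRII at 0.54 without EtOH replicate 2, TyrRII at 0.23 without EtOH replicate 3, and 5-HT7 at 0.09 without EtOH replicate 1. Without EtOH replicate 2, 1 receptor was called higher, where 9.39% of all genes were.

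The vesicular proton pump powers the loading of all transmitters. Of 16 listed subunit and accessory genes, 15 were tested, 0 rose, 1 fell and 14 did not pass, with a median log2 fold change of 0.11. Over all tested genes 4.36% rose and 3.28% fell. The DESeq2 Wald test called 2, Vha68-1 lower and Vha68-2 higher (adjusted p = 0.0130), and limma-voom called 1. Of all 8945 tested genes, these tools called 872 and 668. Vha68-1, of the catalytic A subunit, fell to 381, 380 and 400 CPM in RU486, against 453, 489 and 515 CPM in EtOH (-0.33, SE 0.08, edgeR adjusted p = 0.0410), a call lost without RU486 replicates 1, 2 or 3 (adjusted p = 0.136, 0.124 and 0.105) or EtOH replicate 3 (0.166). Its near relative Vha68-2 was at 405, 599 and 392 CPM in RU486 and 361, 322 and 341 CPM in EtOH (0.45, SE 0.16, adjusted p = 0.129). VhaAC45, of an accessory subunit, was at 330, 411 and 347 CPM in RU486 and 301, 297 and 321 CPM in EtOH (0.24, SE 0.10, adjusted p = 0.191). Both were highest in RU486 replicate 2, the library with the highest digestive transcripts, and without it Vha68-2 was at 0.22 (adjusted p = 0.278) and VhaAC45 at 0.14 (adjusted p = 0.514). Reads of Vha68-1 and Vha68-2 may be shared in part, since these paralogs are similar.

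**Figure D3:**
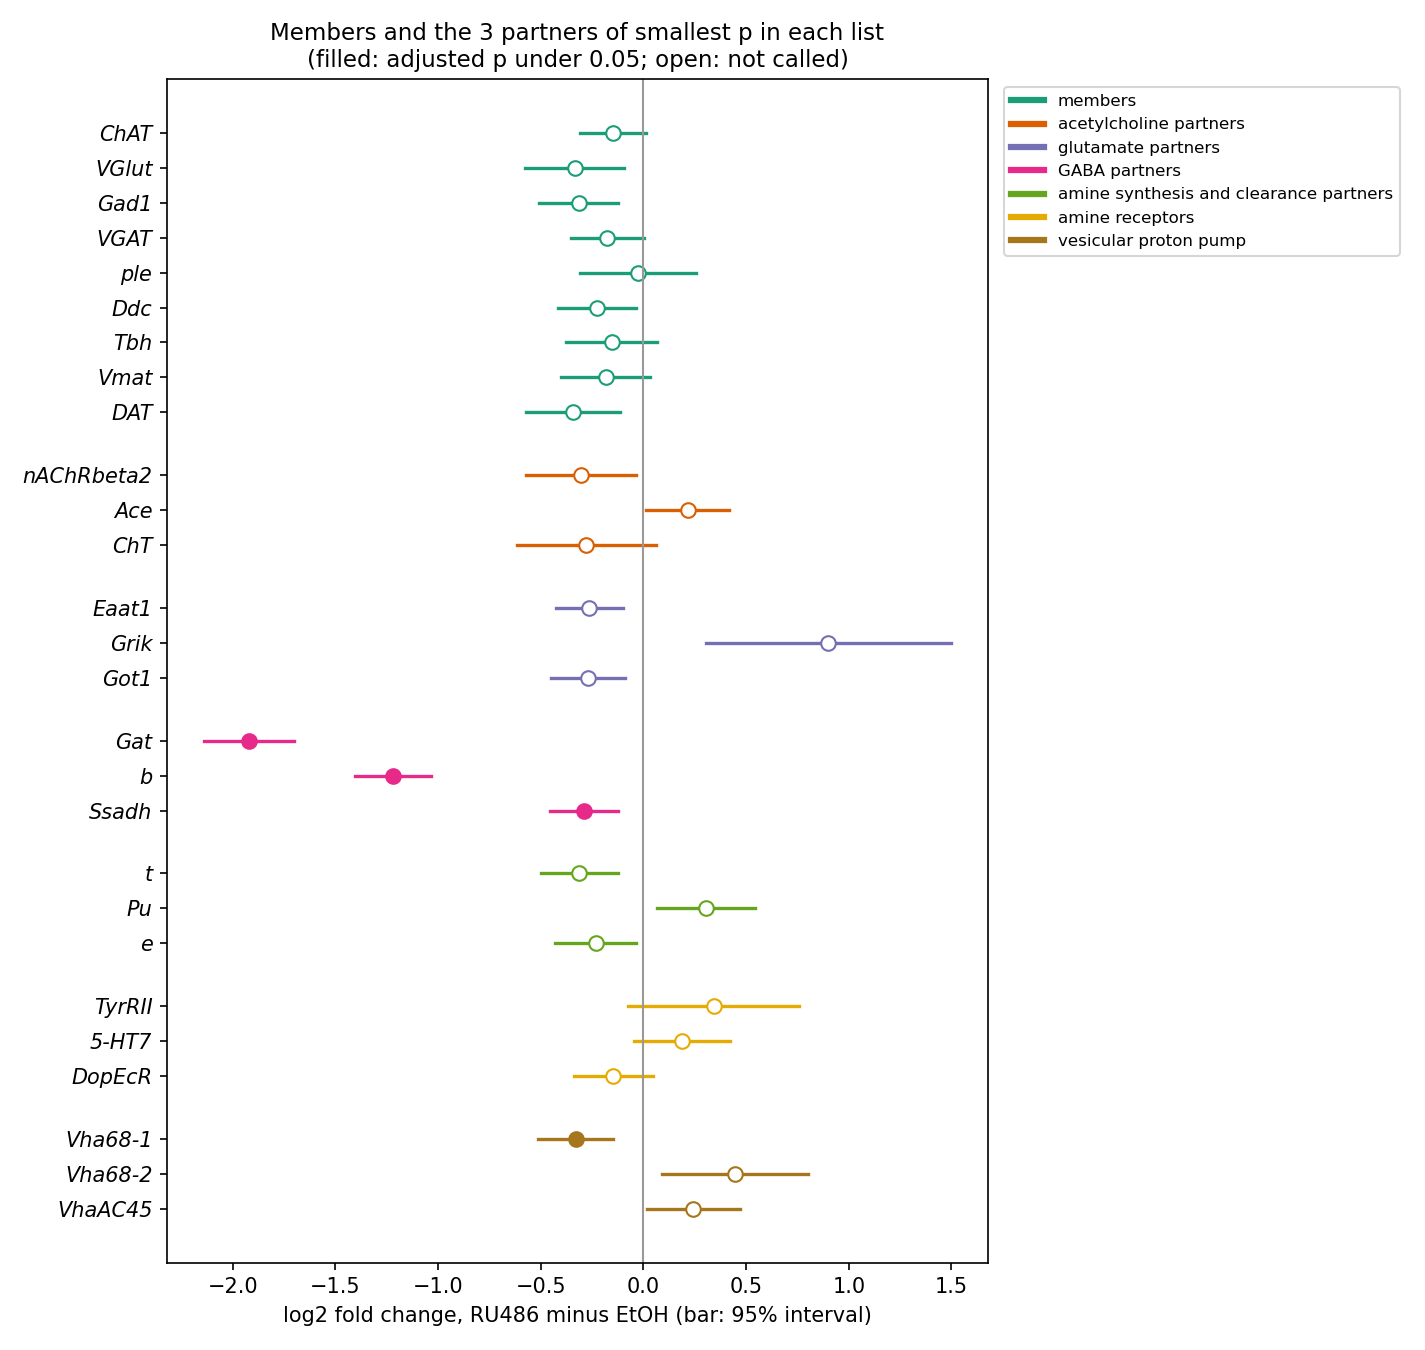
Log2 fold change (RU486 minus EtOH, x axis) with its unadjusted 95% interval for the 9 measured genes and for the 3 genes of smallest p in each of 6 partner lists, coloured by list; filled circles have an adjusted p under 0.05. The 9 measured genes lie between -0.34 and -0.03 and none is filled, whereas Gat (-1.92), b (-1.22), Ssadh (-0.29) and Vha68-1 (-0.33) are.

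Pan-neuronal markers were set beside the transmitter genes. Of 12 listed, 10 were tested and edgeR called 0 (2 at an unadjusted p under 0.05), with a median log2 fold change of -0.06 and a range of -0.27 to 0.33. Over all tested genes, edgeR called 7.64%, and 22.3% passed the unadjusted mark. Syx1A was listed at 0 and elav had counts in 2 libraries only, so the defining marker elav gave no usable level. The list summed to 10347, 10452 and 10794 CPM in RU486 and 9287, 12787 and 10332 CPM in EtOH, which overlapped, with EtOH replicate 2 the highest. The vesicle gene nSyb, synaptobrevin, was at 1550, 1499 and 1634 CPM in RU486 and 1663, 1795 and 1775 CPM in EtOH (log2 fold change -0.16, SE 0.06, adjusted p = 0.181). The part of neuron number or neuronal RNA in the values of the transmitter genes was not tested.

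The gene of the set with the smallest p, Gad1, was compared with all 8446 other tested genes of a mean log2 CPM of at least 1 by the root mean square difference of log2 CPM, each gene centred on its own mean over the 6 libraries. The nearest were CG10479 (0.022), CG5758 (0.033) and BORCS5 (0.037). Of the other measured genes, DAT was the 8th nearest (0.043), Ddc ranked 77, VGAT 91, VGlut 105, Vmat 107, ChAT 179 and Tbh 262, and ple, at 0.231, ranked 4606. The difference between groups is part of this measure, so genes with a log2 fold change like that of Gad1 tend to rank near it. The ranks are a description and carry no test. CG5758 was at 625, 618 and 608 CPM in RU486 and 731, 832 and 793 CPM in EtOH and was called lower (log2 fold change -0.35, SE 0.07, edgeR adjusted p = 0.0243).

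How far the result depends on the treatment of the counts was seen most plainly in Gad1 and VGlut. Across 16 alternatives, Gad1 ranged from -0.40 to -0.26 on the log2 scale and was called in 7; VGlut ranged from -0.43 to -0.17 and was called in 2; ChAT and DAT were called in 1 each; and VGAT, ple, Ddc, Tbh and Vmat in 0. A correction for transcript length, chosen after seeing the data, gave 4 calls (ChAT, VGlut, Gad1 and DAT, all lower), where 5.02% of all genes were called lower. Gad1 was also called with upper-quartile factors, where 4.09% of all genes were called lower, and without replicate 2 of both groups (6.31% called lower). In the alternatives with no call among the 9 genes, the share of all genes called lower was 3.45% with DESeq2 size factors, 3.61% with library size alone, 2.2% with no filter, 3.65% with a strict filter and 4.18% with the replicate block. It was 1.96%, 1.83% and 1.67% without RU486 replicates 1, 2 and 3, and 1.4% without EtOH replicate 3. No alternative called any of the 9 genes higher, and ple alone changed direction, without RU486 replicate 1.

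**Figure D4:**
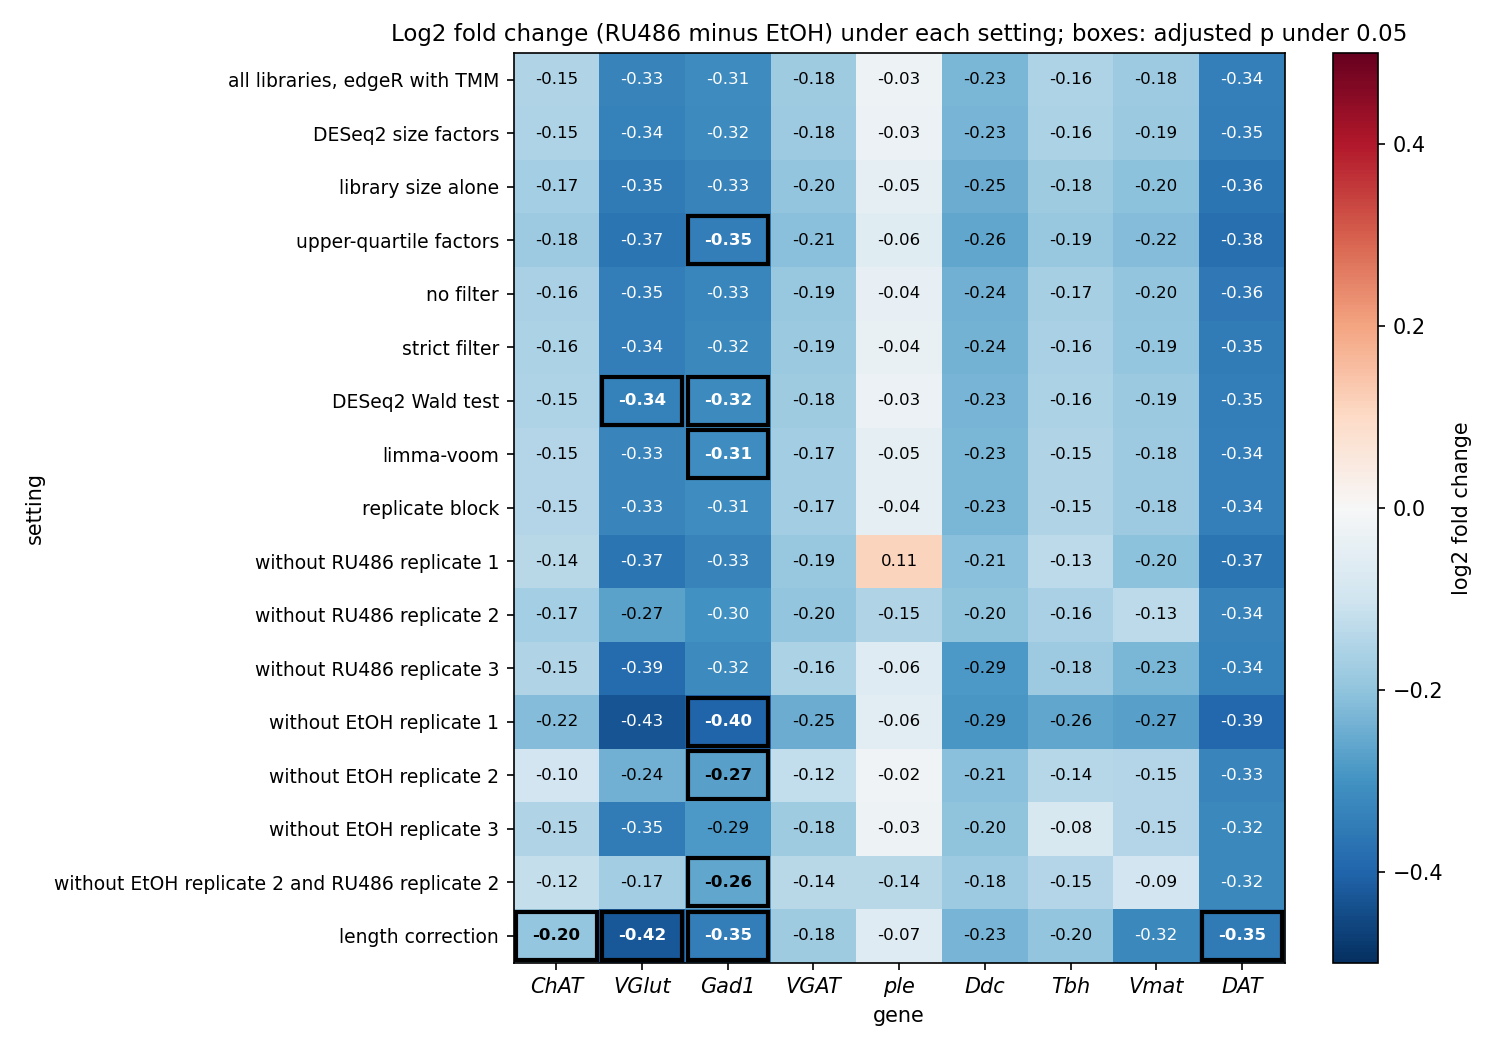
Log2 fold change (RU486 minus EtOH, colour scale and printed values) of the 9 measured genes (columns) with all libraries and under 16 alternatives (rows); boxes mark an adjusted p under 0.05. Gad1 is boxed in 7 rows, VGlut in 2, and ChAT and DAT in the row with the length correction; ple is the only gene with a value above 0.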

How the data were processed

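The libraries, 3 with RU486 and 3 with EtOH, were made with a stranded mRNA kit, per the labels' protocols. The authors deposited 1 table of read counts per FlyBase gene, whole numbers with no normalisation seen in the values. BDGP6 is the build named in the submitters' processing notes. The sources used here do not give the aligner, the counter, the strand setting or the annotation. Coordinates (1-based), exon unions and overlaps came from the Ensembl release 115 annotation of BDGP6.54. Symbols were matched by identifier, and speck by its RefSeq synonym AANAT1. Vha44 was not matched. No sequence is given.

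Counts were tested in R 4.3.3 with edgeR 4.0.16: filterByExpr (minimum count 10, 8945 genes kept), TMM factors, the two-sided quasi-likelihood test over all 6 libraries, and Benjamini-Hochberg adjustment over all genes tested. Each SE was derived from the F statistic. Alternatives used DESeq2 1.42.0, limma-voom (limma 3.58.1), other scalings and filters, the replicate block, each library left out, and, chosen after seeing the data, replicate 2 of both groups left out and a length correction. The fit was tested on simulated data.

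Named were all members, the 3 genes of smallest p in each partner list, the 3 genes most like the member of smallest p, and the target. Of the genes overlapping a member, VAChT, CG18641, CG14989, CG10561 and Rpp25 were named and the others were not. Outside this rule, and chosen after their values were seen, were Gabat, Trh, SerT, Hdc, Tdc1, nSyb, elav, Syx1A, Jon65Aiv, Mhc and the marker genes named as called or listed at 0. Members and lists were chosen with earlier results of these data known. Nothing in the labels says whether replicates were separate cultures, so p-values measure the spread between libraries, which may be technical. No 2 libraries of a group agreed within sampling noise.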

Additional observations from a re-analysis of the deposited data

How the results depend on the processing

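The number of genes called, 683 with all libraries, was between 610 and 928 under the other scalings, filters and tools and the length correction. It ranged from 341 (without EtOH replicate 3) to 1441 (without EtOH replicate 2) when 1 library was left out, with 440 without RU486 replicate 2, 402 without RU486 replicate 3 and 399 without EtOH replicate 1, and was 1394 without replicate 2 of both groups. Calls among the transmitter genes, 0 with all libraries, were 1 with upper-quartile factors, limma-voom or replicate 2 of both groups left out, 2 with the DESeq2 Wald test, 4 with the length correction, and from 0 to 1 when 1 library was left out. The log2 fold change of ple was 0.11 without RU486 replicate 1 and -0.15 without RU486 replicate 2, the ends of its range when 1 library was left out. The causes of these shifts were not tested, and the fits that left out libraries also had fewer samples. With the replicate block, 0 transmitter genes and 872 genes in all were called, and among partners nAChRbeta2 (adjusted p = 0.0416) and t (0.0424) passed as lower and Grik (0.0427) and Pu (0.0419) as higher. Numbers in the labels were not taken to pair libraries, since the deviations of same-numbered libraries correlated at 0.12, 0.27 and -0.04 over genes. VAChT and Tdc2 had no counts to read.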

Other observations

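Some transmitter genes were also set against nSyb, a vesicle gene of all neurons, chosen after its values were seen. nSyb was itself lower in every RU486 library (log2 fold change -0.16). With nSyb included, this held for 2 of the 10 tested pan-neuronal markers and for 13.5% of all tested genes. Those 10 markers ranged from -0.27 to 0.33, so a ratio to nSyb does not scale a gene to neurons as a whole. Gad1 counts per nSyb count were 0.275, 0.278 and 0.259 in RU486 and 0.285, 0.310 and 0.307 in EtOH. VGlut counts per nSyb count were 0.119, 0.108 and 0.117 in RU486 and 0.121, 0.142 and 0.125 in EtOH. Both ratios were lower in every RU486 library, but for VGlut RU486 replicate 1 was only just below EtOH replicate 1. In both, EtOH replicate 2, which stood apart by transcript length, was the highest. ChAT per nSyb was 0.0543, 0.0596 and 0.0531 in RU486 and 0.0538, 0.0575 and 0.0542 in EtOH, and Vmat per nSyb was 0.179, 0.170 and 0.178 in RU486 and 0.168, 0.182 and 0.185 in EtOH, both overlapping between groups. These ratios carry no test.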
